A study of Mus musculus with 24 samples.

Results

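The comparison asked whether the effect of type 2 diabetes on gene expression differed between 2 hindlimb muscles of mice after ligation of the femoral artery in 1 leg. Poly(A) RNA was sequenced from 24 muscle samples taken on day 7 after the ligation, in 4 groups of 6: adductor muscle of control mice, adductor muscle of diabetic mice, gastrocnemius muscle of control mice and gastrocnemius muscle of diabetic mice. Per the labels, all mice were on a C57BL/6 background, the adductor was normoxic and the gastrocnemius ischemic. The labels used here do not give how diabetes was produced, the substrain, the sex, the age, or whether an adductor and a gastrocnemius with the same number came from 1 animal, so a p-value here speaks of the spread among these samples, which may be technical in part. Every sample had been through the ligation, and none of these groups is an unoperated limb. All 24 of 24 samples entered the comparison. For each gene it took the diabetic minus control difference in log2 RPKM (reads per kilobase of transcript per M library reads) in the ischemic gastrocnemius and subtracted the same difference in the adductor. This quantity is called the difference of effects here. It is positive where the ratio of diabetic to control was larger in the gastrocnemius, and negative where it was larger in the adductor.

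When the femoral artery is tied, existing collateral arteries in the thigh widen to carry blood around the block, whereas the calf muscles below it become ischemic, lose and rebuild fibres and grow capillaries. In skeletal muscle, insulin resistance and diabetes are known to alter lipid handling, mitochondrial metabolism and the growth of vessels. A difference of effects sets the diabetic state in the normoxic adductor beside the diabetic state in the ischemic gastrocnemius. Blood flow and vessel growth in these samples were not tested here.

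The libraries formed a first and a second technical set, which no label names. In each muscle, control mice 1 to 3 and diabetic mice 1 to 4 made up the first (14 libraries in all), with Gapdh between 677 and 1757 RPKM. Control mice 4 to 6 and diabetic mice 5 and 6 made up the second (10 libraries), with Gapdh between 0.365 and 13.7 RPKM. Within the second set Gapdh was 0.365 to 0.831 RPKM in controls and 3.71 to 13.7 in diabetics, with no overlap. In each muscle the diabetic libraries of this set also had fewer reads than the controls. Whether the second set is uniform was not tested. Library totals ran from 7.13 to 15.6 M reads, so that 3 reads on a transcript of 1 kb corresponded to 0.192 to 0.421 RPKM, a floor that covers counting error only. The model adjusted for the set separately in the adductor and in the gastrocnemius. Its estimate can therefore differ from what the group medians alone give. The Gapdh medians were 590 and 919 RPKM in control and diabetic adductor, and 339 and 742 in control and diabetic gastrocnemius. The control medians fall between the levels of the sets, where no control library lay. The fitted difference of effects of Gapdh was nevertheless -0.17. The muscle identity of the samples was checked on contractile transcripts. Acta1, skeletal muscle actin, ran from 6622 to 28275 RPKM, Ckm, muscle creatine kinase, from 1417 to 20094 RPKM, and none of 13 fast fibre or 10 slow fibre markers was at 0 in any library. A pair of libraries stood apart in several results and are named where they matter: control gastrocnemius 3, whose summed macrophage markers were the lowest of its group, and control adductor 2, whose summed macrophage and lymphocyte markers and Igf2 were the highest of its group.

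No gene had a difference of effects past a Benjamini-Hochberg adjusted p of 0.05 among 12382 tested genes in limma, the linear model used for all tests here, and the smallest adjusted p was 0.886. This is 0% called. At an unadjusted p under 0.05, 582 genes passed (4.7% of those tested), of which 98 were positive (0.791%) and 484 negative (3.91%). A weighted linear model on read numbers recovered from the RPKM (voom) also called 0 genes, with 103 positive and 458 negative at an unadjusted p under 0.05. The median standard error of a difference was 0.27 on the log2 scale, and the median half-width of a 95% interval was 0.56. For 9065 genes, 73.2% of those tested, the 95% interval lay wholly between -1 and 1. Larger estimates were few, with 49 genes above 1 and 71 below -1. No strand setting appears in the header, and the spans of Clcc1, Wdr55, Slc6a9, Ankrd37, Lipe, Tpi1 and Fdft1 overlap a gene on the other strand, whose reads could not be told apart from theirs where exons meet. The values given below are therefore descriptions of genes with the smallest p-values and of gene lists, and none of them passed the adjusted test.

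Across all tested genes the differences of effects leaned to the negative side on the RPKM scale. Their median was -0.15, the middle 50% lay between -0.31 and 0.02, and 27.6% of genes were above 0. With each library rescaled by the median ratio of its genes to their geometric means, the median was -0.01, 49.3% of genes were above 0, and 54.4% of the genes at an unadjusted p under 0.05 were negative, against 83.2% on RPKM. With quantile normalization that share was 55.4%. The lean thus depended on the scale, and each list below is set beside the all-gene median of -0.15.

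The sets, which share no library, gave differences of effects that were almost unrelated across genes. Pearson's r was 0.05 and Spearman's rho 0.04 over 12382 genes, which are not independent replicates, and 56.6% of genes had the same sign, or 50.2% after median-of-ratios scaling. Of the 250 genes at an unadjusted p under 0.05 in the first set alone, 67.6% had the same sign in the second. Of the 1399 such genes in the second set, 54.4% had the same sign in the first. The median over genes was -0.06 in the first set and -0.27 in the second.

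**Figure D1:**
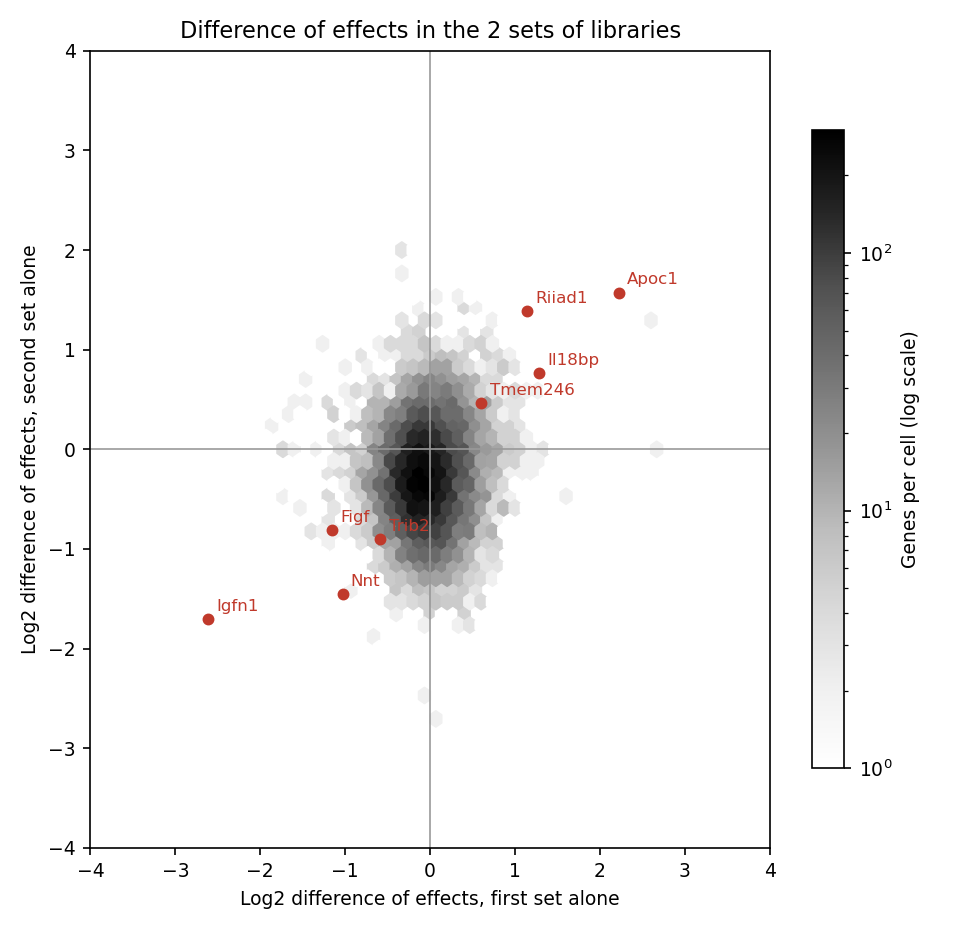
Log2 difference of effects per gene in the first set alone (horizontal axis) against the second set alone (vertical axis), as counts of genes in hexagonal cells on a log grey scale. Marked in red are the 4 genes of smallest p in each direction among those where any group mean reached 2 RPKM. The cloud shows no slope (r of 0.05), and the 8 marked genes, which were chosen on both sets together, lie away from the centre in the same direction in both.

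The genes with the smallest p-values on the negative side were led by a sarcomere protein, a lymphatic growth factor, a pseudokinase and a mitochondrial enzyme. Igfn1 (chr1:137850156-137902919, minus strand, mm9), a skeletal muscle protein with immunoglobulin and fibronectin domains that sits at the Z-disc, had the smallest p. Its RPKM had a lowest, median and highest value of 3.71, 10.1 and 22.3 in control adductor and 9.19, 38.6 and 99.1 in diabetic adductor. In control gastrocnemius these were 4.49, 11.1 and 14.4, and in diabetic gastrocnemius 3.75, 7.60 and 10.1. In the adductor 5 of 6 diabetic libraries lay above every control library, while in the gastrocnemius the groups overlapped with the diabetic values on the low side. The Igfn1 difference of effects was -2.24 ± 0.46 (log2 ± SE; 95% interval -3.20 to -1.28; limma, unadjusted p 7.4e-05), made of 1.68 in the adductor and -0.56 in the gastrocnemius. It was -2.62 in the first set alone and -1.70 in the second, and between -2.57 and -2.02 with any 1 library left out.

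Figf (chrX:160811481-160840579, plus strand, mm9) encodes VEGF-D, a ligand of the receptor VEGFR-3 that promotes the growth of lymphatic vessels. Its lowest, median and highest RPKM were 2.13, 2.63 and 3.51 in control adductor and 3.18, 4.58 and 7.07 in diabetic adductor. They were 2.65, 3.08 and 5.02 in control gastrocnemius and 1.73, 2.49 and 3.28 in diabetic gastrocnemius. The diabetic values were thus mostly on the high side in the adductor and on the low side in the gastrocnemius, with overlap in both. Its difference of effects was -1.02 ± 0.25 (limma, unadjusted p 0.00041), with -1.16 and -0.81 in the sets. These levels rest on 32 to 170 reads per library.

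Trib2 (chr12:15798534-15823591, minus strand, mm9) encodes a pseudokinase of the Tribbles family, which act as scaffolds for protein degradation and signalling. Its adductor values did not overlap between mouse groups, at 3.21 to 4.56 RPKM in controls and 4.75 to 5.32 in diabetics. In the gastrocnemius they overlapped, at 5.34 to 7.23 in controls and 3.68 to 6.31 in diabetics. The effects had opposite signs, 0.31 ± 0.12 in the adductor and -0.40 ± 0.12 in the gastrocnemius, and the difference was -0.72 ± 0.17 (limma, unadjusted p 0.00045).

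Nnt (chr13:120124335-120197945, minus strand, mm9) encodes the inner-membrane transhydrogenase that makes mitochondrial NADPH. The C57BL/6J substrain is known to carry a deletion in this gene, and the labels name C57BL/6 with no substrain; whether the mouse groups differ in it was not tested. Its lowest, median and highest RPKM were 3.90, 5.65 and 6.71 in control adductor and 17.996, 36.6 and 47.2 in diabetic adductor. In the gastrocnemius they were 4.72, 8.03 and 8.52 in controls and 12.8, 22.2 and 31.6 in diabetics. No diabetic value overlapped a control value in either muscle, so that both effects were positive, 2.54 ± 0.22 in the adductor and 1.34 ± 0.22 in the gastrocnemius. The difference, -1.20 ± 0.32 (limma, unadjusted p 0.00091), is one of size and not of direction, and it was -1.03 and -1.45 in the sets.

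Cyp51 (chr5:4080675-4104697, minus strand, mm9) encodes lanosterol 14-demethylase, a step of cholesterol synthesis. Its RPKM ran from 0.664 to 1.33 in control adductor and 1.01 to 1.71 in diabetic adductor. In the gastrocnemius it ran from 1.48 to 6.24 in controls and 1.27 to 1.91 in diabetics. In the gastrocnemius the ranges met only through control 3, the lowest of its group at 1.48. The difference of effects was -1.12 ± 0.31 (limma, unadjusted p 0.0014). It was between -1.35 and -0.88 with any 1 library left out.

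Among genes where any group mean reached 2 RPKM, the 12 smallest p-values on this side held 7 more genes. Ptpn14, a tyrosine phosphatase that binds YAP, had -1.04 ± 0.28. Slc6a9, the glycine transporter GlyT1, also had -1.04, with ± 0.30. Clcc1, a chloride channel of the endoplasmic reticulum, had -0.85 ± 0.23, and Dapk2, a calmodulin-regulated kinase, had -0.66 ± 0.19. Dapk2 was -0.89 in the first set alone and -0.34 in the second. Zfp932, a zinc finger gene, had -0.74 ± 0.21, and Wdr55, a WD-repeat protein, -0.81 ± 0.22. Levels of Zfp932 moved with the set and rest on 3 to 25 reads in the second. With no set term its difference was -0.72 (limma, unadjusted p 0.26). Snord35a, a small nucleolar RNA with -1.19 ± 0.33, is 88 bases long and held 6 to 80 reads per library. It lies within Rpl13a, so reads of the host gene could not be told apart from its own.

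On the positive side the smallest p, among genes where any group mean reached 2 RPKM, belonged to Riiad1 (chr3:94268908-94277513, minus strand, mm9). It encodes a small protein with a domain like the regulatory subunit of protein kinase A. Its levels moved with the set: in each group the second set's libraries had the highest values. Within the first set the adductor ran from 2.16 to 3.12 RPKM in controls and 1.16 to 2.13 in diabetics. The gastrocnemius of that set ran from 1.33 to 2.00 in controls and 1.57 to 3.99 in diabetics. The Riiad1 levels rest on 10 to 60 reads per library. The estimate with set terms was 1.24 ± 0.32 (limma, unadjusted p 0.00074), with 1.14 and 1.38 in the sets.

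Apoc1 (chr7:20274830-20278008, minus strand, mm9) encodes an apolipoprotein of plasma lipoproteins that macrophages also make. Its lowest, median and highest RPKM were 0.699, 3.003 and 4.70 in control adductor and 0.901, 1.80 and 5.22 in diabetic adductor. In control gastrocnemius they were 1.23, 3.74 and 7.43, and in diabetic gastrocnemius 8.01, 16.98 and 23.3. Only the diabetic gastrocnemius stood clear of the other 3 groups. The difference of effects was 1.95 ± 0.51 (limma, unadjusted p 0.00085), from 0.06 ± 0.36 in the adductor and 2.02 ± 0.36 in the gastrocnemius, and it was 2.22 and 1.57 in the sets. The transcript is 431 bases long and its levels rest on 4 to 153 reads.

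Il18bp (chr7:109163592-109166669, minus strand, mm9) encodes the secreted protein that binds and blocks interleukin 18. It was low in the adductor, at 0.777 to 1.65 RPKM in controls and 0.331 to 1.21 in diabetics. In the gastrocnemius its lowest, median and highest values were 4.39, 11.5 and 14.2 in controls and 9.97, 18.1 and 21.0 in diabetics. The control low of 4.39 was control gastrocnemius 3, and the groups overlapped. The estimate was 1.07 ± 0.31 (limma, unadjusted p 0.0024).

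**Figure D2:**
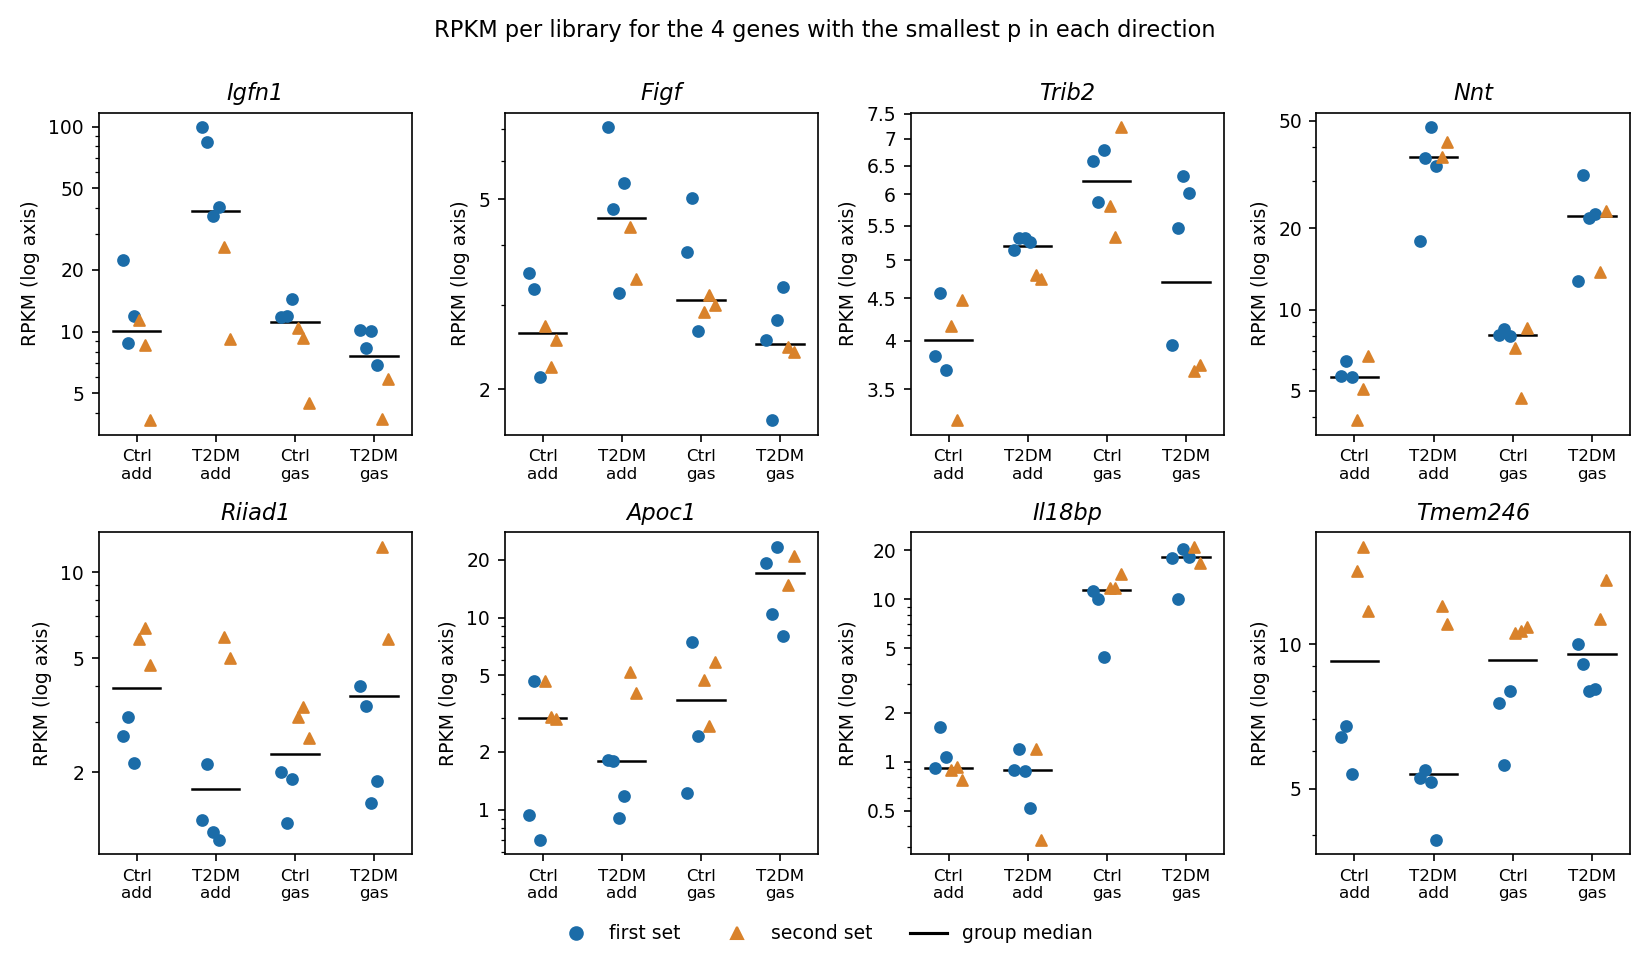
RPKM per library (log axis) of the 4 genes with the smallest p in each direction, among those where any group mean reached 2 RPKM. Groups are Ctrl (control) or T2DM (diabetic), add (adductor) or gas (gastrocnemius), with circles for the first set, triangles for the second and a bar at the group median. Igfn1 is highest in diabetic adductor, where 5 of 6 libraries exceed all others, Nnt is high in diabetic libraries of both muscles, and Apoc1 is high in diabetic gastrocnemius alone.

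Macrophage markers were examined beside these immune-related transcripts because ischemic muscle takes up macrophages. The 13 markers, all above 0 in every library, summed to 67.6 to 442 RPKM in control adductor, 118 to 189 in diabetic adductor, 660 to 2647 in control gastrocnemius and 864 to 2381 in diabetic gastrocnemius. Of the 13, 4 had a positive difference of effects (27.6% of all genes did) and none passed an unadjusted p of 0.05, with a median of -0.21. That median was -0.63 without control gastrocnemius 3 and -0.04 without control adductor 3. The part of macrophage content in the values of Apoc1 and Il18bp was not tested. In bulk muscle, fewer cells of a type and less RNA per cell cannot be told apart.

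Casp4 and Serpina3n, both from a list of acute phase genes and inflammatory caspases, were on the negative side. Casp4, the mouse caspase-11 that senses bacterial lipopolysaccharide in the cytosol, ran from 0.263 to 1.22 RPKM in control adductor and 0.255 to 0.786 in diabetic adductor. In the gastrocnemius it was 1.40 to 3.76 in controls and 0.514 to 1.16 in diabetics, with no overlap. The difference of effects was -1.07 ± 0.33 (limma, unadjusted p 0.0035). Serpina3n, a secreted protease inhibitor, was 1.09 to 4.57 RPKM in control adductor and 7.23 to 27.1 in diabetic adductor, and 6.97 to 20.9 in control and 13.0 to 55.3 in diabetic gastrocnemius. Its effects were positive in both muscles, 2.36 ± 0.38 and 1.05 ± 0.38, and differed by -1.31 ± 0.53 (limma, unadjusted p 0.022). Of the list's 10 tested members, 5 were positive and 2 passed an unadjusted p of 0.05 on the negative side (3.91% of all genes did), with a median of -0.07 that was 0.07 with median-of-ratios scaling.

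The remaining genes of the 12 smallest p-values on the positive side, under the same minimum of 2 RPKM, included transporters and receptors. Slc16a3, the lactate exporter MCT4 of glycolytic fibres, had a lowest, median and highest RPKM of 52.3, 77.3 and 148 in control adductor and 19.9, 28.5 and 82.5 in diabetic adductor. In the gastrocnemius it was 31.9, 36.1 and 67.4 in controls, the highest being control gastrocnemius 3, and 23.3, 38.9 and 73.1 in diabetics. The diabetic values were mostly on the low side in the adductor, while the gastrocnemius medians were close, and the difference was 1.08 ± 0.34. Mrap, the accessory protein that carries the ACTH receptor to the surface of adrenal and fat cells, had 1.91 ± 0.59. Ramp1, a subunit of the receptor for the vasodilator CGRP, had 0.73 ± 0.23, and Pnmt, which makes adrenaline from noradrenaline, had 1.31 ± 0.42. Metrn, a secreted neurotrophic protein, had 0.65 ± 0.20, Tmem246, a transmembrane protein, 0.55 ± 0.16, and Tex38 0.81 ± 0.25. Mir1906-1 and Mir1906-2 are 1 position on chromosome X under 2 names with identical rows (2.03 ± 0.66). Their 79 bases held 0 to 68 reads and they are counted as 1 measurement.

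Genes of energy metabolism and of the fast contractile apparatus lay together above the all-gene median. Of 40 nuclear-encoded subunits of the respiratory chain and ATP synthase, 39 had a positive difference of effects (27.6% of all genes did), and their median was 0.31. Of the 40, 1 passed an unadjusted p of 0.05 on the positive side (0.791% of all genes did) and none on the negative. The median was 0.34 in the first set alone, with 40 of 40 positive, and 0.33 in the second, with 28 of 40 positive. All-gene medians in those sets were -0.06 and -0.27. The median of the 40 was 0.48 with median-of-ratios scaling, 0.33 with quantile normalization, and between 0.23 and 0.46 with any 1 library left out. At the ends of the list stood Cox7a1, the muscle form of a cytochrome c oxidase subunit, at 0.92 ± 0.47, and Uqcrfs1, the Rieske iron-sulfur protein of complex III, at -0.01 ± 0.28.

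Of 15 genes of glycolysis and glycogen breakdown, 14 were positive (27.6% of all genes were), with a median of 0.46 and set medians of 0.51 and 0.28. Leaving out diabetic gastrocnemius 2 gave 0.25 and leaving out control gastrocnemius 3 gave 0.75. Tpi1, triosephosphate isomerase, was the member that passed an unadjusted p of 0.05, on the positive side (0.791% of all genes did). It ran from 654 to 993 RPKM in control adductor, 340 to 943 in diabetic adductor, 361 to 823 in control gastrocnemius and 444 to 812 in diabetic gastrocnemius, and differed by 0.67 ± 0.32. Eno3, the muscle enolase, had 0.81 ± 0.43, Pgam2, the muscle phosphoglycerate mutase, 0.73 ± 0.38, and Pfkm, the muscle phosphofructokinase, 0.66 ± 0.41. Gapdh, whose level separates the sets, was the negative member at -0.17 ± 0.77, with 0.49 and -1.12 in the sets.

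Among contractile and calcium-handling genes of fast fibres, 12 of 13 were positive (27.6% of all genes were). Their median was 0.45, or 0.41 and 0.49 in the sets. Quantile normalization gave 0.19, leaving out control gastrocnemius 2 gave 0.25 and leaving out control gastrocnemius 3 gave 0.91. Mylpf, the fast skeletal regulatory light chain, passed an unadjusted p of 0.05 on the positive side (0.791% of all genes did). It ran from 4529.7 to 10206 RPKM in control adductor, 2832 to 8351 in diabetic adductor, 2555 to 9804 in control gastrocnemius and 3303 to 13658 in diabetic gastrocnemius, and differed by 0.90 ± 0.39. Summed over the 13 genes, the fast fibre level was 49605 to 92948 RPKM in control adductor and 39349 to 78800 in diabetic adductor. In the gastrocnemius it was 12058 to 49602 in controls and 15472 to 55474 in diabetics. Since RPKM shares 1 library total among all genes, these abundant transcripts weigh on the values of all others, and that part was not tested.

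Slow fibre genes had 3 of 9 positive (27.6% of all genes were), a share near that of all genes. Their median was -0.27, or -0.10 with median-of-ratios scaling and 0.02 without control gastrocnemius 3. Atp2a2, the slow fibre calcium pump SERCA2, passed an unadjusted p of 0.05 on the negative side (3.91% of all genes did). Its lowest, median and highest RPKM were 17.3, 35.1 and 74.1 in control adductor and 59.9, 67.8 and 120.0 in diabetic adductor. Gastrocnemius values were 65.7, 99.3 and 126 in controls and 74.6, 106 and 147 in diabetics. The adductor groups overlapped little and the gastrocnemius groups widely, and the difference of effects was -0.91 ± 0.29 (limma, unadjusted p 0.0051), with -0.47 and -1.55 in the sets. The other slow fibre genes had wide errors, as with Myh7, the slow myosin heavy chain, at -0.43 ± 0.95.

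Genes of fat synthesis and of adipocytes also had positive list medians. In the lipogenesis list 10 of 13 genes were positive, the median was 0.46, with 0.76 and 0.44 in the sets, and 3 passed an unadjusted p of 0.05 on the positive side (0.791% of all genes did, and 27.6% were positive). Without diabetic gastrocnemius 6 the median was 0.17. Fasn, fatty acid synthase, had lowest, median and highest RPKM of 3.53, 12.6 and 43.2 in control adductor and 2.61, 3.89 and 6.17 in diabetic adductor. In the gastrocnemius they were 2.78, 7.13 and 22.8 in controls and 3.46, 8.40 and 24.7 in diabetics. The diabetic adductor alone lacked high values, and the difference was 1.70 ± 0.66.

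Scd1, the desaturase that makes monounsaturated fatty acids, differed by 1.58 ± 0.64 and followed another pattern. Its medians were 94.2 and 73.8 RPKM in control and diabetic adductor and 54.4 and 168 in control and diabetic gastrocnemius, so that the larger contrast was in the gastrocnemius. The ranges overlapped in both muscles. Thrsp, a lipogenic nuclear protein, had 1.22 ± 0.57. Gpam, which starts glycerolipid synthesis, and Srebf1, the transcription factor of fatty acid synthesis, were among the negative members at -0.88 ± 0.62 and -0.58 ± 0.31.

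Adipocyte markers were the list with the highest median, 0.58, and 9 of 10 were positive (27.6% of all genes were). The median was 0.77 and 0.47 in the sets, and 0.39 without control gastrocnemius 1. Cfd, the adipocyte protease adipsin, at 1.40 ± 0.66, and Lipe, hormone-sensitive lipase, at 0.87 ± 0.32, passed an unadjusted p of 0.05 on the positive side (0.791% of all genes did). Adipoq, adiponectin, had 0.48 ± 0.75 and Lep, leptin, -0.29 ± 0.51. The 10 markers, none of them at 0 in any library, summed to 258 to 732 RPKM in control adductor, 208 to 804 in diabetic adductor, 241 to 583 in control gastrocnemius and 371 to 775 in diabetic gastrocnemius. These sums overlapped among all 4 groups. The part of fat tissue content in the values of Scd1, Fasn, Thrsp and Mrap was not tested. Lpl, lipoprotein lipase, at 0.50 ± 0.23, was the member of the fatty acid oxidation list past an unadjusted p of 0.05 (0.791% of all genes on the positive side). Of that list's 27 genes, 14 were positive (27.6% of all genes were) and 20 lay above the all-gene median. The list median was 0.00, or 0.17 with median-of-ratios scaling.

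Cholesterol synthesis was the list with the most members past an unadjusted p of 0.05. In this list of sterol synthesis and uptake 15 of 17 tested genes were negative (72.4% of all genes were), the median was -0.44, and 6 passed on the negative side (3.91% of all genes did), namely Cyp51, Fdft1, Nsdhl, Fdps, Insig1 and Idi1. The median was -0.33 and -0.62 in the sets, -0.28 with median-of-ratios scaling and -0.32 with quantile normalization. Leaving out control gastrocnemius 3 gave -0.68. Fdft1, squalene synthase, had lowest, median and highest RPKM of 11.1, 11.4 and 14.4 in control adductor and 11.2, 13.0 and 14.3 in diabetic adductor. The same 3 values in the gastrocnemius were 3.83, 5.27 and 8.60 in controls and 2.63, 4.77 and 8.48 in diabetics. Both muscles' ranges overlapped, and the difference was -0.44 ± 0.18. With median-of-ratios scaling the Fdft1 difference was -0.28 (limma, unadjusted p 0.27).

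Nsdhl, a sterol dehydrogenase acting after Cyp51, ran from 0.797 to 2.14 RPKM in control adductor, 1.09 to 2.04 in diabetic adductor, 2.18 to 4.39 in control gastrocnemius and 0.461 to 2.99 in diabetic gastrocnemius. It differed by -0.73 ± 0.31. Fdps, farnesyl diphosphate synthase, had -0.61 ± 0.27, Insig1, the sterol-sensing brake on SREBP, -0.65 ± 0.29, and Idi1, an isomerase of the mevalonate pathway, -0.57 ± 0.27. Summed over the list, levels were 46.0 to 61.3 RPKM in control and 47.3 to 62.5 in diabetic adductor, and 65.0 to 174 in control and 46.0 to 98.7 in diabetic gastrocnemius.

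**Figure D3:**
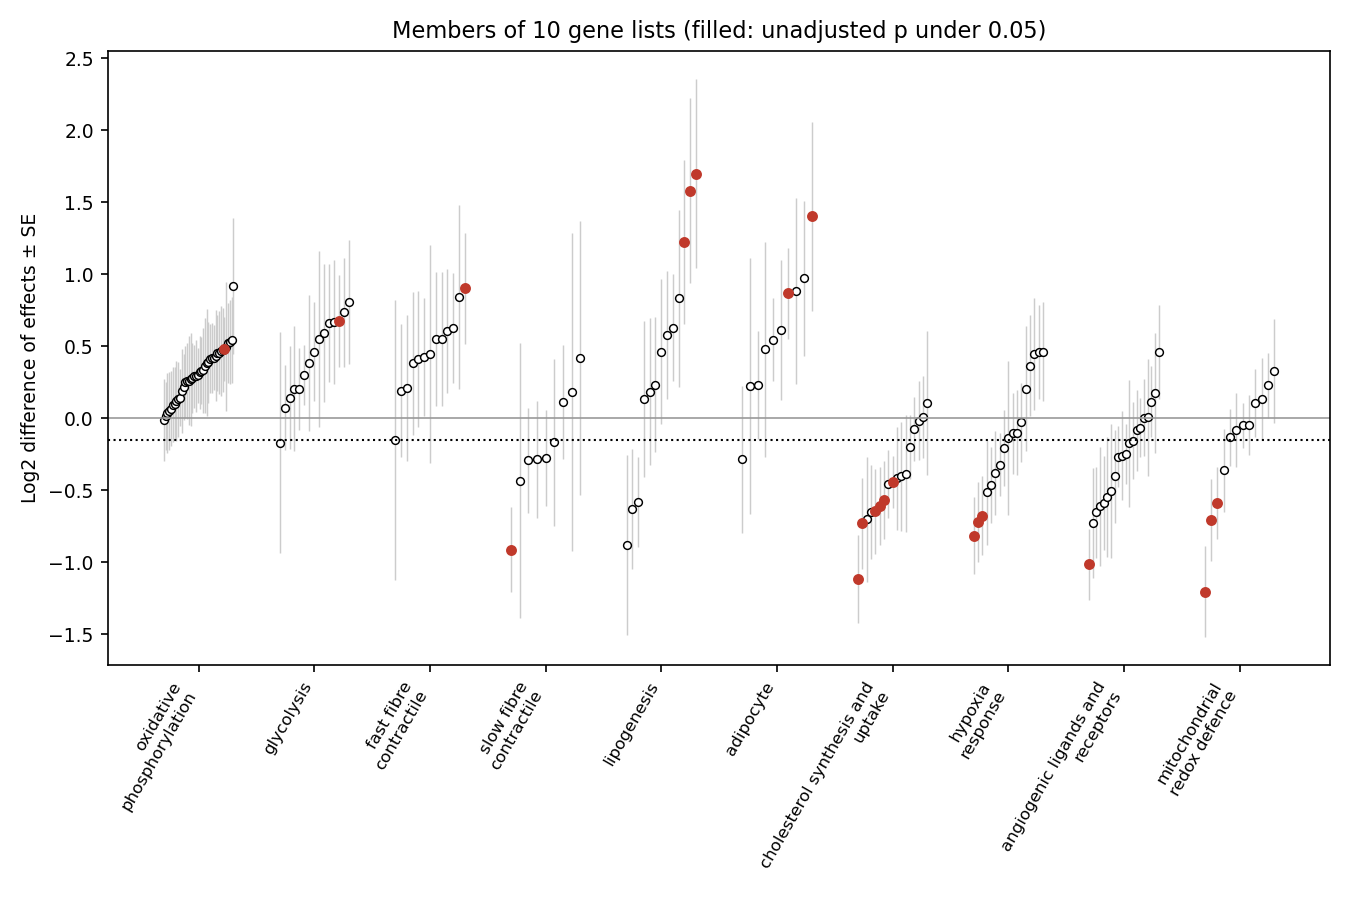
Log2 difference of effects (vertical axis) of each tested member of 10 gene lists, ordered by value, with grey bars of 1 SE and filled red points at an unadjusted p under 0.05; the dotted line is the all-gene median of -0.15. Respiratory chain members lie above the dotted line without exception, and 15 of 17 sterol genes lie below 0.

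Of 20 tested vessel growth ligands and receptors, 1 passed an unadjusted p of 0.05, namely Figf on the negative side (3.91% of all genes did). Of the 20, 5 were positive (27.6% of all genes were). Both shares were near those of all genes. The list median was -0.25, with -0.03 and -0.50 in the sets. Vegfa, the main hypoxia-induced endothelial growth factor, had lowest, median and highest RPKM of 14.5, 20.5 and 34.5 in control adductor and 9.49, 14.5 and 33.7 in diabetic adductor. In the gastrocnemius they were 5.83, 8.80 and 13.9 in controls and 7.56, 10.6 and 20.1 in diabetics. The ranges overlapped, and the difference of 0.46 ± 0.33 had a 95% interval of -0.22 to 1.13, with 0.84 in the first set and -0.10 in the second. Kdr, the receptor VEGFR-2, had -0.61 ± 0.41 (interval -1.46 to 0.24), and Flt1, the receptor VEGFR-1, 0.00 ± 0.27 (interval -0.55 to 0.55), of no fixed sign across settings. Angpt2, a ligand of the endothelial receptor Tek, had -0.65 ± 0.32, and Vegfc, the other VEGFR-3 ligand, -0.59 ± 0.33. Endothelial markers had 3 of 12 positive and a median of -0.26, and none passed an unadjusted p of 0.05.

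The hypoxia response list of 17 genes had a median of -0.14, next to that of all genes, and it was 0.01 with median-of-ratios scaling. Its 3 members past an unadjusted p of 0.05 were all negative (3.91% of all genes passed on that side). P4ha1, a prolyl hydroxylase of collagen, ran from 5.32 to 10.4 RPKM in control adductor, 8.41 to 10.4 in diabetic adductor, 9.01 to 22.8 in control gastrocnemius and 7.49 to 16.3 in diabetic gastrocnemius, and differed by -0.82 ± 0.27. Ankrd37, a direct target of HIF-1, had -0.72 ± 0.28, and Egln3, an oxygen-sensing hydroxylase of HIF, -0.68 ± 0.27. With median-of-ratios scaling Ankrd37 was -0.55 and Egln3 -0.51 (limma, unadjusted p 0.064 and 0.057). P4ha1 was then -0.65 (limma, unadjusted p 0.0029). Vegfa and Ldha, also on the list, were its highest members at 0.46 each.

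Igf2, the fetal growth factor re-expressed in regenerating muscle, showed how 1 library could set a value. It was 6.44 to 10.7 RPKM in 5 control adductor libraries and 119.8 in control adductor 2. It ran from 6.97 to 11.4 in diabetic adductor, 368 to 585 in control gastrocnemius and 339 to 608 in diabetic gastrocnemius. The difference was 0.67 ± 0.61 with that library and -0.05 without it. Igf2 spans Mir483, whose reads could not be told apart.

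Mitochondrial redox genes had 4 of 12 positive (27.6% of all genes were) and a median of -0.07, which was 0.10 with median-of-ratios scaling. Beside Nnt, 2 members passed an unadjusted p of 0.05 on the negative side (3.91% of all genes did). Cat, catalase, ran from 17.4 to 31.1 RPKM in control adductor, 27.2 to 47.1 in diabetic adductor, 13.6 to 32.6 in control gastrocnemius and 12.02 to 40.7 in diabetic gastrocnemius, and had -0.70 ± 0.29. Gsr, glutathione reductase, had -0.59 ± 0.25. With median-of-ratios scaling Cat was -0.54 and Gsr -0.42 (limma, unadjusted p 0.051 and 0.041). Targets of the antioxidant factor NRF2 were negative in 9 of 9 (72.4% of all genes were), with a median of -0.25. No NRF2 target passed an unadjusted p of 0.05, and median-of-ratios scaling left 3 of them positive.

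Several lists had opposite medians in the sets, so that their pooled medians describe neither. Over all genes the median was -0.06 in the first set and -0.27 in the second. Extracellular matrix genes had a median of 0.40 in the first set, with 19 of 23 positive, and -1.09 in the second, with 0 of 23 positive. Macrophage markers had 0.35 and -0.82, interferon-stimulated genes 0.31 and -0.78, and fibroblast markers 0.48 and -0.55. The opposite order was seen for muscle atrophy genes, with -0.64 and 0.34, and for muscle stress and repair genes, with -0.62 and 0.25. Single libraries also moved the pooled medians. The pooled extracellular matrix median of -0.24 was -0.62 without control adductor 2 and -0.05 without control adductor 3. For interferon-stimulated genes the pooled -0.10 was -0.36 without control gastrocnemius 3 and -0.002 without diabetic gastrocnemius 5. The set, the depth of its libraries and the animals in it cannot be told apart.

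**Figure D4:**
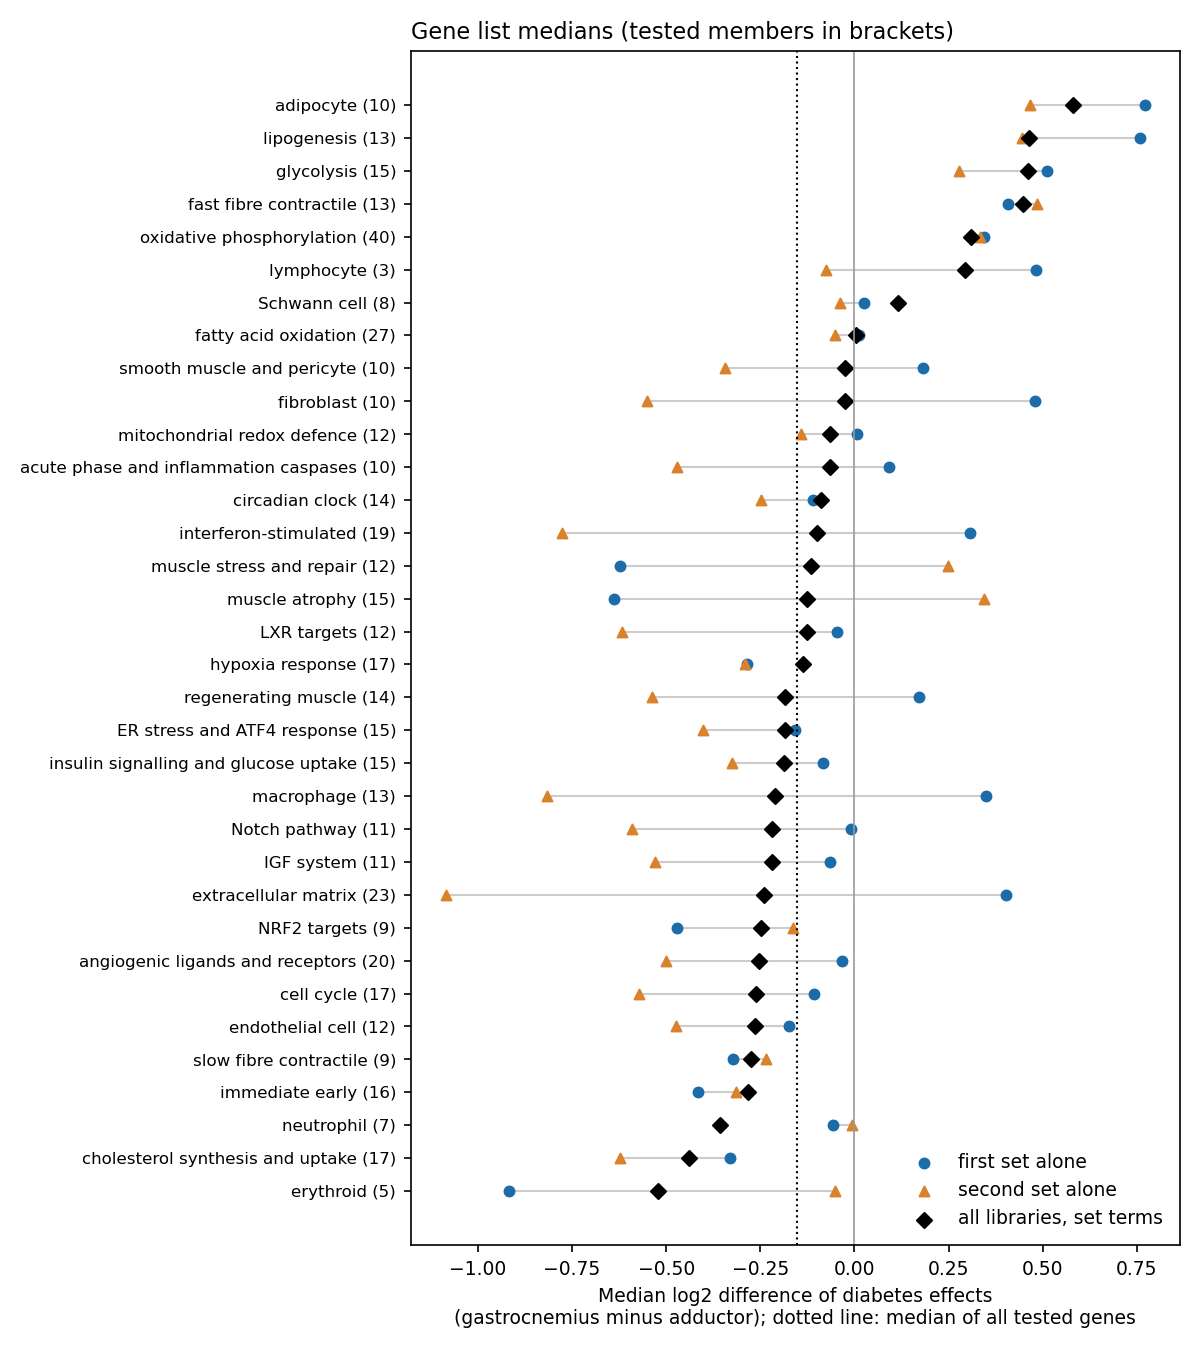
Median log2 difference of effects of each gene list (number of tested members in brackets) in all libraries with set terms (black diamonds), the first set alone (blue circles) and the second set alone (orange triangles); the dotted line is the all-gene median of -0.15. The top 5 lists, from adipocyte markers to oxidative phosphorylation, have positive medians in both sets, while extracellular matrix genes run from 0.40 to -1.09.

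The other lists had few members past an unadjusted p of 0.05, which 4.7% of all genes passed. Red blood cell transcripts were negative in 5 of 5 (72.4% of all genes were), with a median of -0.52, but -0.92 and -0.05 in the sets. Cell cycle genes were negative in 17 of 17 (72.4% of all genes were) with a median of -0.26, and Notch pathway genes in 11 of 11 with -0.22, against 3 and 4 positive members with median-of-ratios scaling. The cell cycle median was -0.11 and -0.57 in the sets, -0.71 without control gastrocnemius 3 and -0.04 without control gastrocnemius 2. For the Notch pathway it was -0.01 and -0.59 in the sets, and -0.37 without control gastrocnemius 3. Immediate early genes had a median of -0.28, and Ier3 and Egr2 were the members past an unadjusted p of 0.05. Ier3, a stress-induced survival protein, had -0.96 ± 0.40, and Egr2, a zinc finger factor also found in Schwann cells, -0.79 ± 0.38. With median-of-ratios scaling Ier3 was -0.79 and Egr2 -0.65 (limma, unadjusted p 0.036 and 0.051). Among targets of the sterol receptor LXR, Apod, an apolipoprotein of nerve and muscle, was negative at -0.83 ± 0.28, while Apoc1 and Scd1, described above, were positive. The median of that list was -0.13, or 0.03 with median-of-ratios scaling. Lists of insulin signalling, the IGF system, the circadian clock and the response to stress of the endoplasmic reticulum had medians between -0.22 and -0.09, or -0.05 and 0.04 with median-of-ratios scaling, and no member past an unadjusted p of 0.05. The same held for regenerating muscle genes, smooth muscle and pericyte markers, neutrophil markers and the 3 tested lymphocyte markers, with pooled medians of -0.18, -0.02 (0.13 with median-of-ratios scaling), -0.36 and 0.29. Their medians in the first and second set had opposite signs for regenerating muscle (0.17 and -0.54), smooth muscle and pericyte (0.18 and -0.34) and lymphocyte (0.48 and -0.08) genes, and were -0.06 and -0.01 for neutrophil markers. Schwann cell markers had a median of 0.11, and Egr2 was the member past an unadjusted p of 0.05.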

How the data were processed

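The deposited table held RPKM, computed by the authors with HOMER over RefSeq transcripts of mm9, per the file headers. The submitters' processing notes name TopHat, HOMER and mm9, and no version is given in the sources used here. No strand setting appears in the header command, so overlapping genes on opposite strands may share reads. Starts are printed 1-based. RPKM times length and library total gave whole reads within 0.01 for 99.97% of values above 0. Same-group libraries differed by more than sampling noise (chi-square per degree of freedom 8.97 to 269.1 over 60 pairs).

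For each of 24016 symbols 1 transcript was kept, that of highest mean RPKM. Symbols with at least 1 RPKM in at least 6 libraries (12382) were fitted as log2(RPKM + 0.5) in limma 3.58.1 (R 4.3.3) with 4 group means, a set term in each muscle and an intensity trend. The pseudocount understates changes of low genes. P-values were adjusted over all 12382. The script was tested on simulated data. Named were the 12 smallest p-values in each direction where any group mean reached 2 RPKM, up to 3 members per list at an unadjusted p under 0.05, and 9 fixed genes. The comparison, the sets and the 34 lists, described by counts and medians only, were chosen with earlier results of these data known. In the sterol and glycolysis lists, Msmo1 and Pkm were matched by alias. Tried were 17 alternatives and leaving out each of 24 libraries. Some items are not reported here.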

Additional observations from a re-analysis of the deposited data

Results flagged for a closer look

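Among the 204 sets of 6 values of the named genes, 12 held 1 library far from the other 5. Far means that the gap to the nearest value, as a share of the range, passed Dixon's critical value. Chance gives such a gap in about 1 in 20 groups. Control adductor 2 was the far library for Igf2 (119.8 RPKM, the others 6.44 to 10.7), Egr2 (0.990, the others 0.178 to 0.389), Il18bp (1.65, the others 0.777 to 1.07) and Cat (31.1, the others 17.4 to 22.1). Diabetic adductor 5 was the far library for Scd1 (187, the others 28.5 to 81.6) and Lipe (15.8, the others 6.39 to 9.43).

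The other 6 fell in 6 libraries. In the adductor these were Atp2a2 in diabetic 3 (120.0, the others 59.9 to 76.6) and Fdft1 in control 3 (14.4, the others 11.1 to 11.8). In the gastrocnemius they were Slc16a3 in control 3 (67.4, the others 31.9 to 38.5), Nnt in control 5 (4.72, the others 7.22 to 8.52), Vegfa in diabetic 2 (20.1, the others 7.56 to 11.7) and Egln3 in diabetic 6 (22.9, the others 13.4 to 15.8).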

How the results depend on the processing

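No gene was called in 15 of the 17 alternatives or in any of the 24 fits that left out 1 library. The second set alone called 1 gene, negative (Mir8092, with at most 1 read in any of its libraries), and limma with sample weights called 3, all negative (Casp4, Cyp51 and Nnt). Positive and negative genes at an unadjusted p under 0.05, 98 and 484 as reported, were 399 and 1598 with sample weights, 155 and 1244 in the second set alone, 69 and 181 in the first, 41 and 113 with no set term, 121 and 262 with 1 set term shared by both muscles, 213 and 254 with median-of-ratios scaling, and 193 and 240 with quantile normalization. With no filter on low values 315 were positive. With 1 library left out they ran from 64 to 255 and from 233 to 1708. The highest counts were without control gastrocnemius 3 (255 and 1708), the lowest negative count without diabetic gastrocnemius 5, the next without control adductor 3 (306) and control gastrocnemius 1 (316), and the lowest positive count without control adductor 2. Without diabetic gastrocnemius 3 and 4 the negative counts were 753 and 738.

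Whether same-numbered muscles of a mouse group came from 1 animal is not stated. Their deviations from the group means correlated over genes with r of 0.25 to 0.74 in 12 pairs, but with -0.02 to 0.60 once the set terms were removed, over 0.1 in 7 of 12, and 5 of 12 matched their own number best, so the pairing was taken as shared numbers. With the number as a random block 150 and 827 genes passed an unadjusted p under 0.05, with a fixed block 127 and 704, and 0 were called in both (smallest adjusted p 0.19 and 0.21).

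Of the 5 genes named by the fixed list alone, only Kdr kept its sign in all settings. The others of the 51 were chosen by their p in the reported fit, so their sign is no sign of stability. Flt1 was negative with a pseudocount of 1 (-0.00664), in the first set alone (-0.19), with voom (-0.0463) and with sample weights (-0.0939), and ran from -0.12 to 0.14 with 1 library left out. Gapdh was positive in the first set (0.49), with quantile normalization (0.0103) and as a mean over transcripts (0.0566), and ran from -0.62 to 0.27. Igf2 was -0.42 and Vegfa -0.10 in the second set alone, and Igf2 ran from -0.0543 (without control adductor 2) to 0.96. With 7.13 to 15.6 M reads, the median half-width of an unadjusted 95% interval was 0.56 per gene. A difference under about that size would not pass an unadjusted p of 0.05 in the median gene. The adjusted test is stricter, and it did not call even Igfn1 at -2.24 ± 0.46.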
